A study of Mus musculus with 2 samples.

Results

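The genes described here carry the type I interferon signal from the cell surface to the nucleus and back to its own brake. They are the receptor chains Ifnar1 and Ifnar2, the kinases Jak1 and Tyk2, the transcription factor subunits Stat2 and Irf9, the interferon regulatory factors Irf7 and Irf1, and the inhibitor Socs1. They were chosen by their role in the pathway and found by symbol, and all 9 are among the 31053 genes of the count matrices. All 9 had enough UMIs (distinct captured transcripts) to be measured, from 363 for Irf1 to 30659 for Jak1 over both libraries. The question is which of them are held at one level and which follow the interferon response, per library and from cell to cell.

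Type I interferons bind a receptor made of IFNAR1 and IFNAR2, whose inner parts hold the kinases TYK2 and JAK1. The kinases mark STAT proteins, of which STAT2 joins IRF9 in the complex ISGF3, and ISGF3 binds the interferon-stimulated response element (ISRE) in the promoters of interferon-stimulated genes (ISGs). STAT dimers bind another element, the gamma-activated site (GAS). IRF7 raises further interferon genes, IRF1 drives a part of the same program, SOCS1 blocks the kinases, and USP18 sits on IFNAR2 and keeps JAK1 away from it.

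The cells came from spleens of mice with an acute myeloid leukemia driven by AE9a, a truncated AML1-ETO fusion. Per the study's methods, a retrovirus carried AE9a together with GFP into fetal liver cells, and the leukemia was then passed on to irradiated recipient mice. In both groups the leukemia cells carried floxed Usp18 and UBCER-Cre, a recombinase under a promoter active in most cells that works once tamoxifen is given. Sick recipients received oil or tamoxifen, and the leukemia cells, gated as GFP+ Lin- c-Kit+ (no mature lineage markers, Kit receptor present), were taken 3 days after the first injection. Each group is 1 pool of 3 mice and 1 library, and both titles mark the same batch. The genotype and treatment labels give Usp18f/f for both sets of transplanted cells, with Usp18delta/delta as the genotype of the tamoxifen group, while the protocol text gives Usp18+/f and a heterozygous depletion. The series title and the study's data statement place these libraries with the depletion of both alleles. Since the labels conflict, the libraries are named here by their injection label alone. No label ties a cell to a mouse. With 1 library per group no test was possible, and differences below are between 2 libraries, not between conditions with known spread. The intervals, at 95%, hold counting error and nothing else. Where a pair of values is given, that of the library labelled oil comes first.

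The filter kept 6838 and 6472 cells, with 66045700 and 60661486 UMIs. Of the kept barcodes, 12 occur in both libraries. Usp18 itself had 371 and 933 UMIs and thus was higher with the tamoxifen label, at a log2 ratio of 1.45 (1.28 to 1.63). That label stands for its depletion, but Usp18 also rose with the ISGs across cells, as given below. Reads from the 3′ end do not show whether an upstream exon is deleted, so these counts do not settle whether Usp18 was depleted. Kit, the marker of the gate, stood at 171 and 232 CPM (a gene's UMIs relative to all UMIs of the library). Of the lists for other blood cells, the 7 granulocyte markers summed to 3 UMIs in each library with Ly6g, S100a8, Ltf and Elane at 0. The 4 dendritic cell markers summed to 1 UMI in each library and the 5 T cell markers to 0 and 4 UMIs. B cell markers summed to 14 and 11 UMIs, natural killer markers to 29 and 38, endothelial markers to 18 and 31, monocyte and macrophage markers to 372 and 321 and megakaryocyte markers to 464 and 586. Siglech, the defining marker of plasmacytoid dendritic cells, was at 0 in both libraries, although the 4 markers listed for them, mostly through Tcf4, summed to 3231 and 3451 UMIs. The gate held many transcripts of other lineages: all 6 mast cell and basophil markers were present, summing to 1873 and 1686 CPM, and so were all 6 erythroid markers, summing to 6206 and 7814.

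Promoters are shown for the genes the results below turn on, since ISGF3 and STAT dimers act there. The windows are those of RefSeq on GRCm38.p6 and end at the base before the annotated start of transcription, except that for Irf7 the last 57 bases, which lie inside the gene in GENCODE M21, were left out. The windows shown hold no annotated exon of GENCODE M21. Each is written 5′ to 3′ on the strand of its gene. Capitals mark an ISRE, searched as TTTC, any 2 bases and TTTC on both strands, or a GAS, searched as TTCNNNGAA, which reads the same on both strands.
Stat2, chr10:128270248-128270497, plus strand: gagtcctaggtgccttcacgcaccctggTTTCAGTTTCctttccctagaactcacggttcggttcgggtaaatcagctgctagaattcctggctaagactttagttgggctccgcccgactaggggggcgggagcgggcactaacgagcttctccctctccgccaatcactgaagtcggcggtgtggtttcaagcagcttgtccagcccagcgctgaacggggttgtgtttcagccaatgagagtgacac
Socs1, chr16:10785537-10785786, minus strand: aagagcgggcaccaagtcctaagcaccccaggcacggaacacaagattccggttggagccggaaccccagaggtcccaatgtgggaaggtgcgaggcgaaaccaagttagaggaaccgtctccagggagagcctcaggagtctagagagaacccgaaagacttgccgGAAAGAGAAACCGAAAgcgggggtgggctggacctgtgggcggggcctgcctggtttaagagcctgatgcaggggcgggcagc
Irf1, chr11:53769764-53770013, plus strand: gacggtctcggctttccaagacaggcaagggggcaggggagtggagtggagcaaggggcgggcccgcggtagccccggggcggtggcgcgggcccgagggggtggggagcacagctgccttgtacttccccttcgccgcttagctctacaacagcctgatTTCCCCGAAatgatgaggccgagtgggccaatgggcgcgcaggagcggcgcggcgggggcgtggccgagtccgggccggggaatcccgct
Irf7, chr7:141266482-141266674, minus strand: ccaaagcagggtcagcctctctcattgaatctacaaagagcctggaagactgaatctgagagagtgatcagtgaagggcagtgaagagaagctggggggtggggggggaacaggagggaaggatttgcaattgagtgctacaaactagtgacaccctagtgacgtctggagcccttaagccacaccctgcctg
Ifnar2, chr16:91372533-91372782, plus strand: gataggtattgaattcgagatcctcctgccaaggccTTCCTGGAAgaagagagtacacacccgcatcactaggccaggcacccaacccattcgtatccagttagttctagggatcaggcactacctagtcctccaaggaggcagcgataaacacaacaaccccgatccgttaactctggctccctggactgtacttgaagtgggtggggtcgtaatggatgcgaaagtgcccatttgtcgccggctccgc
Stat2 has 1 ISRE, TTTCAGTTTC, from 222 to 213 bases before its start. Socs1 has 2 that overlap, GAAAGAGAAA from 83 to 74 and GAAACCGAAA from 77 to 68 bases before its start, both on the other strand. Irf1 has a GAS, TTCCCCGAA, from 90 to 82 bases before its first start, and Ifnar2 has one, TTCCTGGAA, from 214 to 206. A GAS also spans the start of Ifnar1, while the windows of Jak1, Tyk2, Irf9 and Irf7 hold neither motif. Both RefSeq windows of Irf9 lie inside the Irf9 gene of GENCODE M21, as do the last 59 bases before the start of Jak1, so the sequence before the longer Irf9 gene model was not searched. Over all 32851 promoter windows of 300 bases, 3.44% hold an ISRE and 8.30% a GAS. A match to these letters is a description of the window and not a bound site, and the lack of one says nothing about sites elsewhere.

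Between the libraries, the receptor chains and kinases differed little, while the components downstream of them stood higher with the tamoxifen label. A gene was counted where its level, in CPM, differed at least 1.5-fold. This held for 4 of the 9 genes, Stat2, Irf7, Irf1 and Socs1, all of them higher and 0 lower. Over the 10527 genes with at least 100 UMIs, 2.09% were that much higher and 1.27% that much lower. The median log2 ratio was 0.35 over the 9 genes and -0.063 over all genes.

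Ifnar1 (ENSMUSG00000022967, chromosome 16, 91485238 to 91507441, plus strand, GRCm38), the chain that holds TYK2, had 24.1 CPM (22.9 to 25.3) and 26.5 CPM (25.2 to 27.8), a log2 ratio of 0.14 (0.036 to 0.24). Ifnar2 (ENSMUSG00000022971, chromosome 16, 91372783 to 91405589, plus strand), the chain that binds interferon most tightly and also docks USP18, had 33.1 (31.7 to 34.5) and 35.2 (33.7 to 36.7), a log2 ratio of 0.091 (0.0039 to 0.18). The receptor chains were thus 1.10-fold and 1.06-fold higher with the tamoxifen label. Jak1 (ENSMUSG00000028530, chromosome 4, 101152367 to 101265282, minus strand), a kinase shared by many cytokine receptors, had 236 (232 to 240) and 248 (244 to 252), a log2 ratio of 0.072 (0.040 to 0.10). Tyk2 (ENSMUSG00000032175, chromosome 9, 21104068 to 21131243, minus strand) had 21.4 (20.3 to 22.6) and 20.9 (19.8 to 22.1), a log2 ratio of -0.032 (-0.14 to 0.078). Over all kept cells together, the interval of Tyk2 held 0, and the differences of the other 3 exceeded counting error by little. Among G1 cells Tyk2 was lower with the tamoxifen label, as given below.

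Stat2 (ENSMUSG00000040033, chromosome 10, 128270559 to 128292849, plus strand), the subunit that gives ISGF3 its activating domain, had 11.7 CPM (10.9 to 12.6) and 17.9 (16.9 to 19.0), a log2 ratio of 0.61 (0.48 to 0.75). Irf9 (ENSMUSG00000002325, chromosome 14, 55603571 to 55610030, plus strand), the DNA-binding subunit of ISGF3, had 44.1 (42.5 to 45.8) and 56.3 (54.4 to 58.2), a log2 ratio of 0.35 (0.28 to 0.42). Both of these ISGF3 subunits were therefore higher beyond counting error, Stat2 by 1.53-fold and Irf9 by 1.28-fold, the latter short of the 1.5-fold mark.

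Irf7 (ENSMUSG00000025498, chromosome 7, 141262706 to 141266481, minus strand) stood apart from the other 8. It had 619 UMIs, or 9.37 CPM (8.65 to 10.1), with the oil label and 1701 UMIs, or 28.0 CPM (26.7 to 29.4), with the tamoxifen label, a log2 ratio of 1.58 (1.45 to 1.72). Irf1 (ENSMUSG00000018899, chromosome 11, 53770014 to 53778374, plus strand) was scarce, with 149 UMIs, or 2.26 CPM (1.91 to 2.65), and 214 UMIs, or 3.53 CPM (3.07 to 4.03), a log2 ratio of 0.64 (0.34 to 0.96). Socs1 (ENSMUSG00000038037, chromosome 16, 10782240 to 10785536, minus strand), which is itself raised by several cytokines, had 39.2 CPM (37.7 to 40.7) and 64.0 (62.0 to 66.1), a log2 ratio of 0.71 (0.64 to 0.78). The intervals of the 2 libraries did not overlap for any of these 3 genes.

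**Figure D1:**
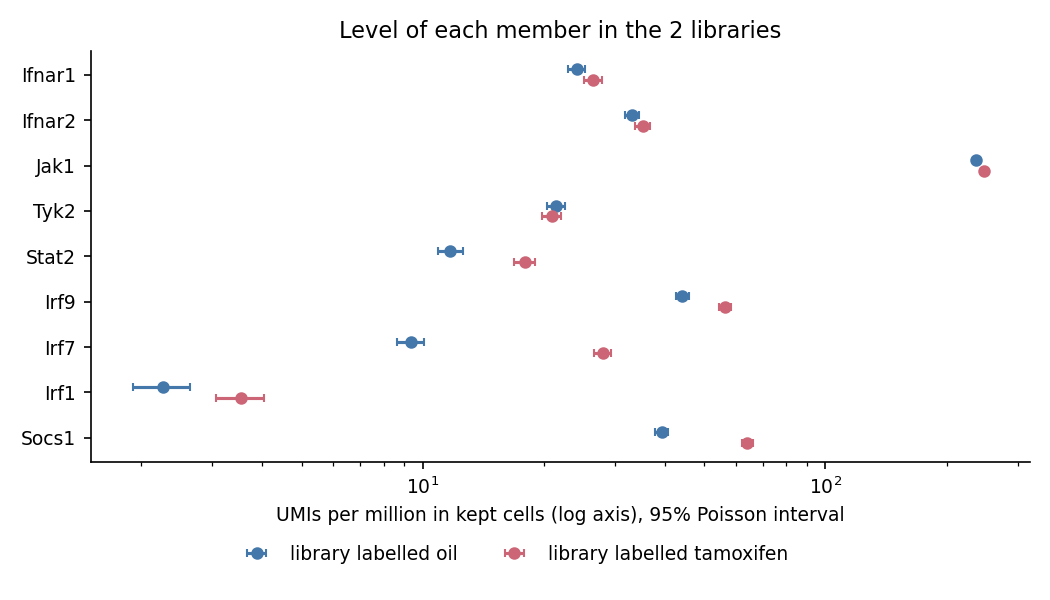
Level of each gene in CPM (log axis) per library; points are the libraries and bars are 95% Poisson intervals. Irf7 shows the widest gap, from 9.37 to 28.0, while the points of Ifnar1, Ifnar2, Jak1 and Tyk2 nearly coincide.

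Some of these genes overlap others in the annotation: Irf7 overlaps Phrf1 on the other strand, and Irf9 overlaps Rnf31 on the same strand. Phrf1 had a log2 ratio of -0.22 and Rnf31 one of 0.0035, so neither neighbour was as far apart between the libraries as its partner. Ifnar2, Jak1, Tyk2 and Irf1 also overlap other annotated genes, and the sources used here do not state how shared reads were counted.

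Other receptors, kinases, IRFs, cofactors and inhibitors of the pathway were mostly level, and the median log2 ratio of these lists ran from -0.083 for the cofactors to 0.17 for the kinases. Jak2, which serves other cytokine receptors, had a log2 ratio of 0.31 (0.24 to 0.38) and Jak3 one of 0.042 (-0.33 to 0.41). None of the 3 other receptor genes measured, Ifngr1, Ifngr2 and Il10rb, passed the mark, and Ifnlr1, the receptor chain for interferon lambda, was at 0 in both libraries. Irf3, a constitutively made factor that acts downstream of sensors of viral nucleic acid, had a log2 ratio of -0.074 (-0.16 to 0.0075), and the repressor Irf2 had 0.21 (0.15 to 0.28). Irf5 had -0.34 (-0.76 to 0.077). The 9 cofactors all lay within the mark. Lowest were the nuclear import factor Kpnb1 at -0.43, the methyltransferase Prmt1 at -0.40 and Smarca4 at -0.33. Highest were the acetyltransferase Crebbp at 0.050, Ep300 at 0.035 and Nmi at -0.0095. Besides Usp18, none of the 15 other inhibitors measured passed the mark.

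Transcripts of the ligands were nearly absent from the sorted cells. Of 18 type I interferon genes, 14, among them Ifnb1, were at 0 in both libraries, which allows at most 0.0559 and 0.0608 CPM by the Poisson interval. The 18 genes together had 41 UMIs, 37 of them from Ifnz, which had 24 and 13. The source of any interferon acting on these cells is not shown by these libraries.

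Next, the genes were followed across cells. To rank the cells, each was thinned to 3000 UMIs, so that depth did not set the score, and its UMIs from a list of 57 ISGs, 56 of them in the matrices and none among the 9 genes, were summed. Of the kept cells, 508 and 345 were shallower and were left out. In each library the cells at or below the lower tertile and those at or above the upper tertile of this sum were compared, using all UMIs of their cells. Tied sums make the groups unequal. The lower groups held 3001 and 2194 cells, both with 0 to 3 ISG UMIs. The upper groups held 2357 cells with 5 to 85 and 2311 cells with 6 to 70. Mean ISG sums were 2.02 and 2.08 in the lower groups and 6.89 and 9.68 in the upper. The folds below thus span a wider ISG contrast with the tamoxifen label and are not directly comparable between the libraries.

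Of the 9 genes, 4 were at least 1.5-fold higher in the upper group of both libraries, namely Stat2, Irf9, Irf7 and Irf1. Ifnar1 and Socs1 passed in 1 library each, and Ifnar2, Jak1 and Tyk2 in neither. The background was high: 9.12% of all genes passed with the oil label, 9.58% with the tamoxifen label and 5.72% in both. The 602 genes that passed in both include 40 of the 44 measured genes of the ISG list. Those genes set the groups and so pass largely by construction.

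Irf7 was tied most closely to the ISGs. With the oil label it went from 5.14 CPM in the lower group to 17.7 in the upper, a fold of 3.45 and a log2 ratio of 1.78 (1.52 to 2.05), and with the tamoxifen label from 8.44 to 61.4, a fold of 7.28 and a log2 ratio of 2.86 (2.65 to 3.09). Stat2 went from 9.10 to 15.6 (1.71-fold) and from 11.2 to 28.9 (2.57-fold). Irf9 went from 36.8 to 55.9 (1.52-fold) and from 40.0 to 75.8 (1.90-fold). The 2 ISGF3 subunits thus followed the ISGs less steeply than Irf7 did, and Irf9 only just passed in the library labelled oil. Irf1 went from 1.55 to 3.17 (2.05-fold) and from 2.69 to 4.98 (1.85-fold), resting on 54 and 65 UMIs in the lower groups.

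Of the receptor and kinase genes, Ifnar2, Jak1 and Tyk2 were flatter. Ifnar1 went from 19.9 to 30.3 (1.52-fold) with the oil label, as steep as Irf9 there. With the tamoxifen label it went from 21.5 to 29.8 (1.39-fold), less steep than Irf9. Ifnar2 went from 31.0 to 35.2 (1.13-fold) and from 31.7 to 38.0 (1.20-fold). Jak1 went from 214 to 268 (1.26-fold) and from 230 to 264 (1.15-fold), and Tyk2 from 19.4 to 22.6 (1.17-fold) and from 18.2 to 22.9 (1.26-fold). All 4 were somewhat higher in the upper group of both libraries, against a median log2 ratio over all genes of 0.088 and 0.099. Socs1 passed with the tamoxifen label alone, going from 33.3 to 47.0 (1.41-fold) and from 50.9 to 82.2 (1.61-fold).

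Other properties of the cells moved with the ISG sum. From the lower to the upper group, cells in G1, the phase before DNA is copied, went from 30.1% to 58.1% and from 41.3% to 71.1%. The median UMIs per cell went from 11080 to 7421 and from 10221 to 7258. The mast cell and basophil markers went from 1488 to 2435 and from 1387 to 1982 CPM in sum, the erythroid markers from 5392 to 7615 and from 6670 to 9584, and Kit from 129 to 228 and from 175 to 285. The part of depth and of these markers in the result was not tested. Phase was examined by repeating the split among G1 cells alone, where only Irf7 still passed in both libraries, at 2.46-fold (log2 1.30, 0.88 to 1.73) and 4.71-fold (log2 2.24, 2.00 to 2.48), against 1.30% of all genes. There Stat2 stood at 1.43-fold and 2.00-fold, Irf9 at 1.29-fold and 1.37-fold, Irf1 at 1.34-fold and 1.57-fold, and Socs1 at 1.18-fold and 1.30-fold. Of the receptor and kinase genes, Ifnar1 stood at 1.28-fold and 1.03-fold in G1 cells, with the oil label about as steep as Irf9. Ifnar2 stood at 0.961-fold and 1.10-fold, Jak1 at 1.15-fold and 1.05-fold, and Tyk2 at 1.05-fold and 1.01-fold. With the oil label the intervals of Ifnar1 (log2 0.36, 0.076 to 0.65) and Jak1 (log2 0.20, 0.10 to 0.29) lay above 0.

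Some other pathway genes passed in both libraries, and those given here are named after their values were seen. Usp18 was 2.87-fold and 7.07-fold higher in the upper group, beside 3.45-fold and 7.28-fold for Irf7. Stat3 was 1.63-fold and 1.60-fold higher. Irf5, which had few UMIs, was 2.69-fold and 1.64-fold higher, and with the tamoxifen label its log2 interval (-0.048 to 1.49) held 0. None of the 3 other receptors, 2 other kinases and 9 cofactors passed in both.

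Cells with the same or like ISG sums were then set side by side between the libraries. In each of 7 groups of cells, from 0 to at least 10 ISG UMIs, Irf7 stood higher with the tamoxifen label, and 6 of the 7 intervals lay above 0. At 0 ISG UMIs it had 2.74 and 11.0 CPM, from 8 and 19 UMIs. At 6 to 9 it had 13.7 (11.6 to 16.0) and 28.8 (26.0 to 31.7), and at 10 or more 84.6 (71.1 to 99.8) and 146 (136 to 157). The steepest step was thus to the cells with the most ISG UMIs in both libraries. Those cells with 10 or more ISG UMIs were 3.54% and 11.5% of cells, and they held 22.9% and 48.3% of the Irf7 UMIs in cells deep enough to be thinned, against 2.53% and 9.13% of all UMIs there.

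Stat2 showed the same shape on a smaller scale. It had 14.6 and 19.1 CPM at 6 to 9 ISG UMIs and 25.5 (18.4 to 34.5) and 54.1 (48.1 to 60.6) at 10 or more. At 0 to 5 ISG UMIs it ran from 8.32 to 12.7 and from 10.1 to 14.1, and in no single group there did the interval of the difference lie above 0. Over the cells with 0 to 3 ISG UMIs together, its log2 ratio was 0.30 (0.060 to 0.54). The top cells held 5.64% and 27.8% of its UMIs. Irf9 climbed more evenly along the groups, from 29.2 to 79.7 and from 28.4 to 95.4.

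Socs1 behaved in another way. Along the same groups it went from 31.9 to 45.6 CPM and from 36.6 to 98.7 CPM, and it was higher with the tamoxifen label in all 7 groups, with 6 intervals above 0. In cells with 2 ISG UMIs it had 31.1 (28.0 to 34.3) and 48.8 (44.2 to 53.8). The top cells held 2.95% and 14.1% of its UMIs. Over the cells with 0 to 3 ISG UMIs together, its log2 ratio was 0.61 (0.49 to 0.73), beside 0.30 for Stat2 and 0.12 (-0.0039 to 0.24) for Irf9. In Jak1 the order turned, with 192 and 205 at 0 ISG UMIs and 293 (268 to 321) and 259 (245 to 272) at 10 or more. Ifnar1 was also lower with the tamoxifen label in those top cells, from 69 and 157 UMIs, at a log2 ratio of -0.55 (-0.97 to -0.12). The groups of 6 to 9 and of 10 or more were split after the data were seen.

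**Figure D2:**
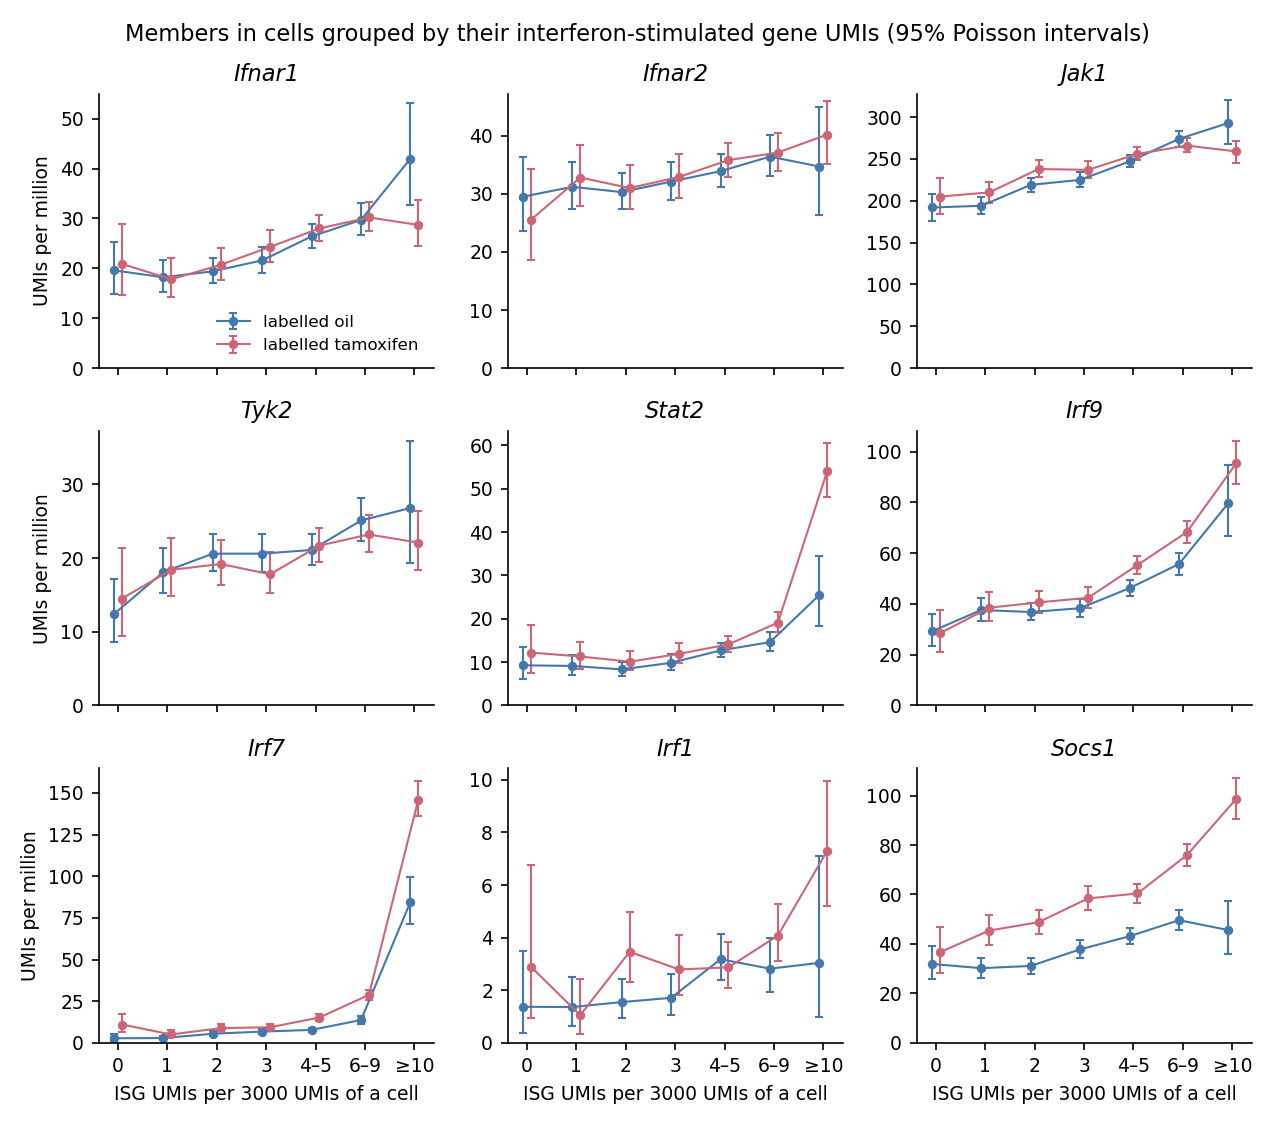
CPM of each gene in cells grouped by the ISG UMIs among 3000 UMIs of the cell for both libraries, with 95% Poisson intervals; each panel has its own axis from 0. Irf7 and Stat2 bend upward in the cells with 10 or more ISG UMIs, to 146 and 54.1 in the library labelled tamoxifen, whereas Socs1 is apart between the libraries in each group from 1 ISG UMI up.

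Weighting the 7 groups alike in both libraries shows how much of each difference lies within these groups. It matches the ISG sums only in part. The groups of 4 to 5, 6 to 9 and 10 or more each span several sums, the last up to 85 and 70. The log2 ratio of Irf7 was 1.57 as measured in these cells and 0.87 with the same makeup. That of Stat2 went from 0.64 to 0.40, that of Irf9 from 0.35 to 0.21 and that of Irf1 from 0.64 to 0.49. Socs1 kept most of its ratio, from 0.71 to 0.61, and the receptor and kinase genes lay between -0.074 and 0.053. These weighted ratios carry no interval, and the weighting was chosen after the data were seen.

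The phases gave a similar order. In G1 cells, 2709 and 3414 in number, Irf7 had 17.0 (15.1 to 19.1) and 46.5 (43.8 to 49.3) CPM, a log2 ratio of 1.45 (1.26 to 1.64), in S phase 6.44 and 13.4 (1.05, 0.70 to 1.42) and in G2M 6.51 and 15.6 (1.26, 1.01 to 1.52). Socs1 had log2 ratios of 0.57 (0.46 to 0.68), 0.73 (0.57 to 0.89) and 0.49 (0.36 to 0.62) in G1, S and G2M. Both genes were thus higher with the tamoxifen label in every phase. Among G1 cells, Irf7 and Stat2 were at least 1.5-fold higher, against 2.42% of all genes, and Socs1 fell just short. Tyk2 was lower in G1 cells of the library labelled tamoxifen, at 32.7 (30.1 to 35.5) and 25.7 (23.8 to 27.8), a log2 ratio of -0.35 (-0.51 to -0.18), but not in S phase (0.088, -0.17 to 0.35) or G2M (0.029, -0.16 to 0.22). G1 cells were 42.8% of one library and 55.7% of the other, and Ifnar1 had no excess in any phase, with log2 ratios of -0.048, 0.013 and 0.055 in G1, S and G2M.

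**Figure D3:**
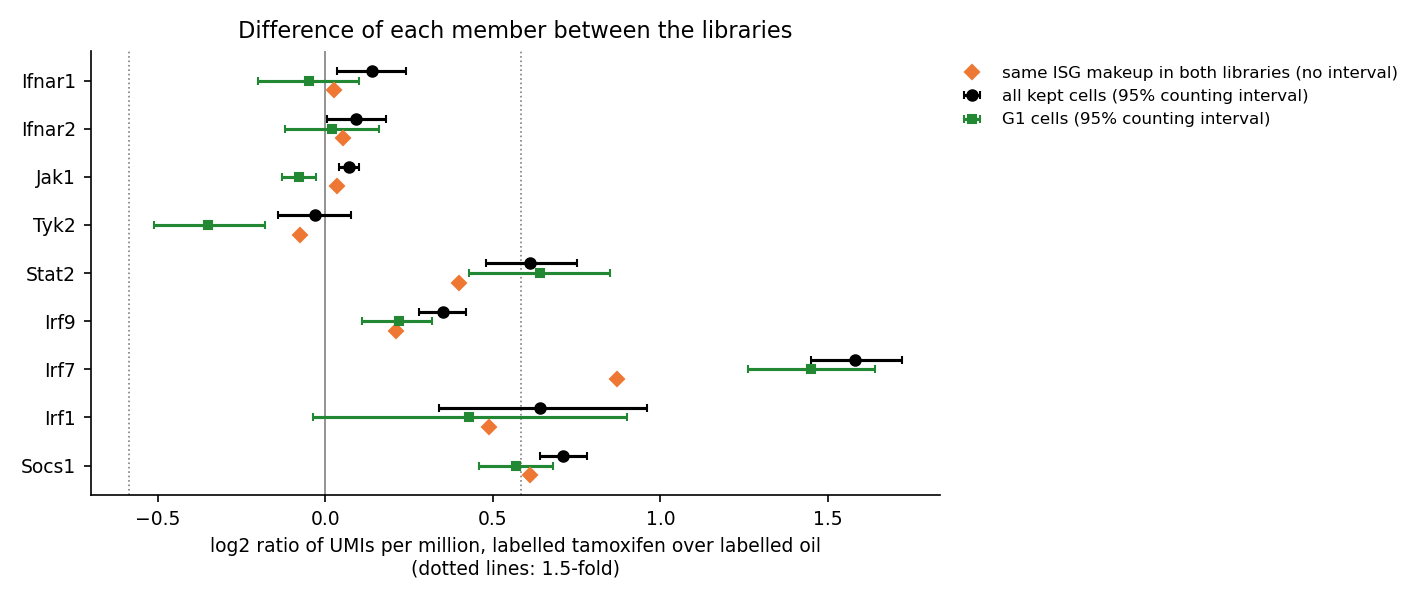
Log2 ratio of CPM, library labelled tamoxifen over library labelled oil, for all kept cells (circles), G1 cells (squares), both with 95% counting intervals, and with the same ISG makeup in both libraries (diamonds, no interval); dotted lines mark 1.5-fold. The diamond of Irf7 lies at 0.87, far below its circle at 1.58, while that of Socs1 lies at 0.61, near its circle at 0.71.

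The share of cells in which a gene was seen followed the same lines. After thinning to 3000 UMIs, a UMI of Irf7 was found in 181 of 6330 cells, 2.86% (2.46 to 3.30), and in 531 of 6127 cells, 8.67% (7.97 to 9.40). Without thinning, its share was 2.29-fold higher rather than 3.03-fold. Socs1 was found in 11.8% (11.0 to 12.6) and 17.9% (17.0 to 18.9) of cells, Irf9 in 13.9% (13.1 to 14.8) and 18.0% (17.0 to 18.9), and Stat2 in 3.65% (3.20 to 4.14) and 5.75% (5.18 to 6.36). Beyond counting error, more cells with the tamoxifen label than with the oil label showed these 4 genes. For Ifnar1 (8.47% and 8.36%), Ifnar2 (10.4% and 10.6%), Jak1 (52.3% and 52.1%), Tyk2 (7.22% and 6.64%) and Irf1 (0.916% and 1.27%) the intervals overlapped. The share that free RNA alone would produce is unknown, since the sort left no second cell type to measure it in.

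The spread over cells also set the genes apart. The variance of the UMIs per cell divided by their mean, which is 1 for random sampling of an even level, was 0.997 to 1.02 for Ifnar1, Ifnar2, Tyk2 and Irf1 in both libraries. It was 1.27 and 1.42 for Irf7 and 1.24 and 1.37 for Socs1. Irf9 (1.10 and 1.12), Jak1 (1.11 in both) and Stat2 (1.05 and 1.08) lay between. Irf7 and Socs1 were therefore the most uneven of the 9 genes across cells, although scarce genes can show little spread above sampling.

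**Figure D4:**
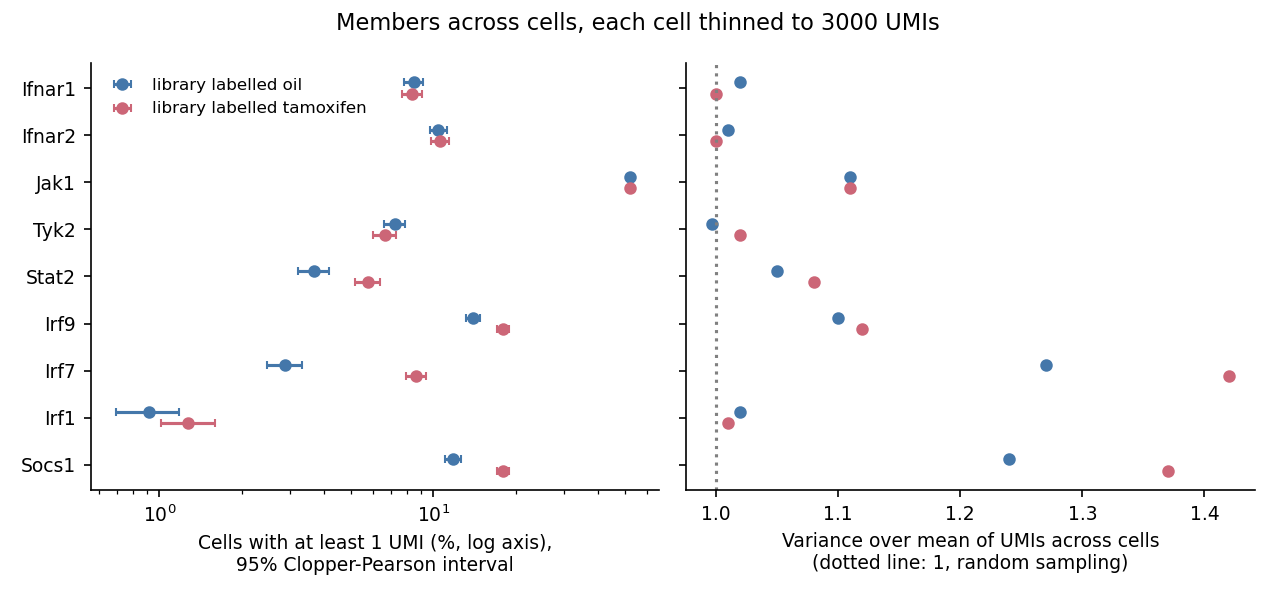
Left, share of cells with at least 1 UMI of each gene (log axis) with 95% Clopper-Pearson intervals; right, variance over mean of its UMIs across cells, in both libraries, all cells thinned to 3000 UMIs. Irf7 moves from 2.86% to 8.67% of cells and has the highest ratio of variance to mean in both libraries, 1.27 and 1.42.

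The genes were seldom seen in the same cell at this depth. Ifnar1 and Ifnar2, whose products must meet to form the receptor, were both found in 61 of 6330 and 71 of 6127 cells, 0.964% (0.738 to 1.24) and 1.16% (0.906 to 1.46), against 0.883% and 0.882% from the product of their shares. Irf7 and Stat2 were both found in 0.142% (0.0650 to 0.270) and 1.14% (0.892 to 1.44) of cells, against 0.104% and 0.498%. Irf7 and Irf9 were both found in 0.742% (0.546 to 0.986) and 2.32% (1.96 to 2.73), against 0.398% and 1.56%. Irf7 and Irf9, and with the tamoxifen label also Irf7 and Stat2, thus met in the same cells more often than their shares alone give. The receptor chains met at 1.09 times (0.836 to 1.40) and 1.31 times (1.03 to 1.65) that product, above it beyond counting error with the tamoxifen label only. Stat2 and Irf9, the ISGF3 pair, met at 1.37 times (0.995 to 1.84) and 1.41 times (1.13 to 1.73). Irf7 and Socs1 met in 0.427% (0.281 to 0.620) and 2.46% (2.09 to 2.88) of cells, against 0.337% and 1.55%. Stat2 with Irf9 and Irf7 with Socs1 thus also exceeded the product beyond counting error with the tamoxifen label only.

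Clusters of cells were built without these genes, the pathway and ISG lists and the genes that differed between the libraries, and are given by number. Of 10 clusters, 7 held at least 100 cells of each library. Cluster 5 (65 and 867 cells) and cluster 9 (16 and 199 cells) came mostly from the library labelled tamoxifen and may reflect that library. With that label Socs1 had 20.2 CPM in cluster 5 and 18.6 in cluster 9, below the 35.4 of its lowest shared cluster. Its log2 ratios in clusters 5 and 9 were -0.69 (-1.62 to 0.40) and -0.88 (-2.21 to 0.80), from 10 and 5 UMIs with the oil label. Without clusters 5 and 9 its log2 ratio between the libraries was 0.88, beside 0.71. In all 7 shared clusters Irf7, Stat2, Irf9 and Socs1 stood higher with the tamoxifen label, though for Stat2, Irf9 and Irf7 not beyond counting error in each. The log2 ratio of Irf7 ran from 0.35 to 1.92 over them, and that of Socs1 from 0.62 to 0.76. The even range of Socs1 holds at this cluster resolution of 0.5 and not at 1.0, where its ratio ran from -0.69 to 0.93 over 11 shared clusters, beside 0.30 to 1.88 for Irf7. At that resolution Irf7 was higher with the tamoxifen label in all 11, Socs1 and Irf9 in 10 and Stat2 in 9, with lowest ratios of -0.60 for Irf9 and -0.42 for Stat2. Ifnar1 was higher in 1 of the 7 clusters, with ratios from -0.21 to 0.048, and in 4 of the 11, with ratios from -0.58 to 0.34.

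The clusters in which the genes peaked were not the same. Irf7 was highest in cluster 4 in both libraries, at 22.0 (17.7 to 27.1) and 82.8 (75.4 to 90.6) CPM, and lowest in cluster 2 at 5.38 and 8.93. Cluster 4 held the most erythroid marker transcripts of the 7, 16375 and 21419 CPM, and had a mean of 4.85 and 8.68 ISG UMIs per cell. Socs1 was highest in cluster 3, at 98.1 (88.2 to 109) and 152 (143 to 162), which held the most mast cell and basophil marker transcripts, 6099 and 4486, and its levels there were 4.68 and 4.31 times those of cluster 7, the lowest. Irf9 peaked in cluster 3 too, at 82.3 and 101. Ifnar1 and Tyk2 were highest in cluster 0, where 93.1% and 95.2% of cells were in G1, at 41.5 and 41.4 for Ifnar1 and 38.4 and 34.4 for Tyk2. Genes with even levels between the libraries thus still varied 2.62-fold (Ifnar1) and 2.39-fold (Tyk2) between clusters of the library labelled oil. The part of phase and of lineage transcripts in these peaks was not tested.

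**Figure D5:**
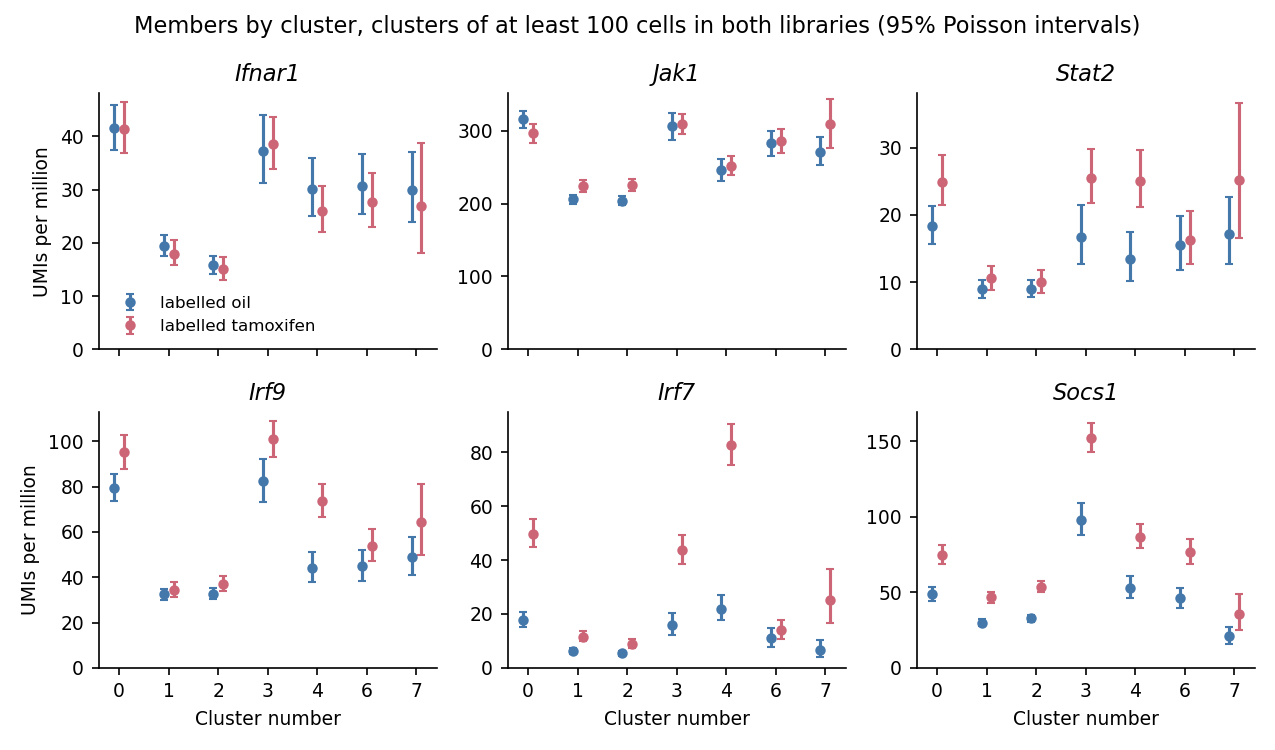
CPM of 6 of the genes in the 7 clusters with at least 100 cells in each library, with 95% Poisson intervals and axes from 0. Irf7 peaks in cluster 4 at 82.8 and Socs1 in cluster 3 at 152 in the library labelled tamoxifen, and Ifnar1 and Jak1 show nearly the same level in both libraries within a cluster.

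For each gene, the genes most like it were sought by Pearson r of log-normalized counts across the 6838 and 6472 cells of each library, among 9016 genes with at least 500 UMIs. Cells share a library and differ in depth, so these values only describe the order. Irf7 came closest to the ISGs Isg15 (0.22 and 0.38), Ifit1 (0.19 and 0.35) and Oas3 (0.15 and 0.34). Stat2 came closest to Ifit1, at 0.10 and 0.19. Socs1 came closest to 3 genes outside the ISG list, Fam46a (0.21 and 0.25), Slc7a8, an amino acid transporter (0.19 and 0.26), and Rnase6, a secreted ribonuclease (0.16 and 0.25). Jak1 came closest to Il1rl1, the receptor of interleukin-33 (0.15 and 0.15), Srgn (0.16 and 0.14) and Hdc, the enzyme that makes histamine (0.14 and 0.14), and Irf9 to Txnip (0.14 and 0.16), Malat1 and Serpinb1a. Ifnar1 had Txnip at 0.11 and 0.10, and Ifnar2, Tyk2 and Irf1 had no gene at 0.1 or more in both libraries. Among pairs of the 9 genes with the tamoxifen label, Stat2 and Irf7 had the highest value, 0.18, beside 0.047 with the oil label.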

How the data were processed

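The deposited files hold UMI counts per gene and cell for 2 libraries of the Chromium 3′ V3 kit. Per the labels and the study's methods, the authors made these counts with Cell Ranger (3.0.2 in the file headers) on mm10 and named Seurat for their own analysis; the counts carry no normalization. The 9 genes and every gene list were chosen with earlier results of these data known.

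Kept cells had a minimum of 500 genes and no more than 10% of mitochondrial UMIs. No doublet caller was run and no doublets were removed. Counts were summed over cells and divided by their total to give CPM, with exact Poisson intervals, exact conditional binomial intervals for log2 ratios and Clopper-Pearson intervals for shares, all at 95%. Ratios cover 10527 genes with at least 100 UMIs over both libraries. With 1 library per group no test was run, so a fold of 1.5 served as the mark. The depth was 66045700 and 60661486 UMIs in kept cells, with medians of 8622.5 and 8209.5 per cell.

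Cells were thinned to 3000 UMIs by 1 random draw for ISG sums, shares and phases (scanpy 1.11.5). Clusters used Seurat 5.3.0 with 2000 variable features, 20 principal components and a resolution of 0.5, on merged libraries without the 9 genes, the pathway and ISG lists, and mitochondrial, sex chromosome and library-differing genes among the variable features. Named were all 9 genes, Usp18, ligand and receptor genes, of each pathway list the genes past 1.5-fold or else the 3 highest and 3 lowest ratios, and up to 3 most alike genes with r of at least 0.1 in both libraries. The result for 1 gene of the pathway lists is not reported here. Gene positions come from the primary assembly annotation of GENCODE M21, in which 31011 of 31053 identifiers were found, and all 9 genes matched the RefSeq promoter table of GRCm38.p6. The ratio, interval and ISG group steps were tested on simulated counts. Alternatives were other cell filters, scalings (edgeR 4.0.16, DESeq2 1.42.0), thinning depths, groupings, G1 cells, fold marks, count minimums and cluster resolutions. Scripts ran in R 4.3.3 and Python 3.11.15 (matplotlib 3.10.9, pandas 2.3.3, scipy 1.17.1, numpy 2.4.6).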

Additional observations from a re-analysis of the deposited data

Results flagged for a closer look

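Barcodes that failed the filter on cells, 936 and 839 with the oil and the tamoxifen label, entered no comparison above except the alternative without a filter. Socs1, Irf7 and Irf9 had a signal there that was higher with the tamoxifen label, beyond counting error. Socs1 had 234 and 372 UMIs there, 55.8 and 85.2 CPM, a log2 ratio of 0.61 (0.37 to 0.85), beside 0.71 in the kept cells. Irf7 had 66 and 127 UMIs, 15.7 and 29.1 CPM, a log2 ratio of 0.89 (0.45 to 1.34), beside 1.58 in the kept cells. Irf9 had 205 and 272 UMIs, 48.9 and 62.3 CPM, a log2 ratio of 0.35 (0.083 to 0.62). Jak1 was lower there, at 258 and 226 CPM, a log2 ratio of -0.20 (-0.32 to -0.069), and the intervals of Ifnar1, Ifnar2, Tyk2, Stat2 and Irf1 held 0. With 1 library per group, the difference between the libraries was not tested.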

How the results depend on the processing

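No paired analysis was possible because there is only 1 library in either group. Of 4 genes at least 1.5-fold apart between the libraries, 2 remained under a stricter cell filter of 1000 genes and 5% mitochondrial UMIs (Irf7 and Socs1, from 673 and 771 cells, with Stat2 just short at a log2 ratio of 0.58 beside 0.61), 2 among G1 cells (Irf7 and Stat2) and 1, Irf7, at 2-fold. Of 4 genes at least 1.5-fold higher in the upper ISG group of both libraries, 1, Irf7, remained in G1 cells, at a thinning to 2000 UMIs and at 2-fold. A split at the median lost Irf9 (1.47-fold and 1.57-fold), and the stricter filter lost Irf1 (1.28-fold and 1.16-fold) and gained Socs1 (2.21-fold and 2.24-fold). Irf7 passed in both comparisons under every alternative run, with library log2 ratios from 0.87 to 2.00. Ifnar1, Ifnar2, Jak1 and Tyk2 passed in neither comparison under any, with library log2 ratios from -0.35 to 0.22. In the library labelled oil alone, Ifnar1 did reach 1.5-fold between the ISG groups under some alternatives, up to 2.33-fold under the stricter filter. The cause was not tested. In the cells of 6 or more ISG UMIs, the log2 ratio of Irf7 was 1.44, and it was 1.07 for 6 to 9 and 0.79 for 10 or more, groups chosen after the data were seen, like the alternatives without clusters 5 and 9 and without cluster 8. Without clusters 5 and 9, and with equal weight for every cell, Stat2 was no longer 1.5-fold apart and 3 genes remained. The Irf7 share of cells was 2.29-fold higher without thinning, beside 3.03-fold. Its highest cluster was 5.03 times its lowest at resolution 0.3, beside 9.27, in the library labelled tamoxifen. The scalings moved all genes by 0.039 to 0.080 on the log2 scale. The share of all genes at least 1.5-fold apart was 7.72% at a minimum of 20 UMIs and 1.97% at 500, beside 3.36%. Depth limits Irf1 most, with 149 and 214 UMIs.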
